A study of Mus musculus with 4 samples.

Results

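Mouse intestinal organoids that were Tacc3 fl/fl were compared with Tacc3 wt/wt organoids at day 6, on 1 Affymetrix array per genotype, so 2 of the 4 arrays of the series are described. Both arrays were taken by their titles. Both day 6 cultures had received 4OHT, the tamoxifen metabolite that is used to switch on Cre recombinases fused to an oestrogen receptor, for 24 hours. The wt/wt culture is labelled a control organoid, so both arrays share the drug. The sample descriptions call both day 6 cultures Apc-deficient, while the series text names recombination of both Apc and Tacc3. The Cre driver, the floxed exons, and whether a culture came from 1 animal or a pool are not stated in the labels. Another pair of arrays, fl/fl and wt/wt at day 4, whose descriptions call the organoids normal, is used below only to set values side by side, and it shares no array with day 6. The series text, however, has 4OHT recombining both genes for either day. The day 4 cultures therefore cannot be taken as untreated, and the Apc state of each array is not settled.

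Intestinal organoids are epithelial cultures that grow in Matrigel as crypt-like buds and hold stem cells, Paneth cells, enterocytes, goblet cells, tuft cells and enteroendocrine cells. Tacc3 encodes a protein that binds clathrin and ch-TOG on spindle microtubules and steadies the spindle in mitosis. Apc limits beta-catenin, and its loss turns on Wnt targets. Enteroendocrine cells sense nutrients and release peptide hormones from granules that contain granins. Cells short of oxygen stabilise hypoxia-inducible factors, which bind a core of ACGTG and raise glycolytic enzymes, and SR proteins and the kinases that phosphorylate them govern which exons are joined in a messenger RNA.

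Values are linear intensities of probe sets, groups of short probes for 1 transcript, and differences are fl/fl minus wt/wt on a log2(intensity + 16) scale, on which dim genes show smaller differences than their intensities do. Of 18193 genes, each read from its brightest probe set, 11392 passed the level filter at an intensity of 16.9. Of these, 24 were at least 2-fold higher in fl/fl at day 6, 0.211% of the genes, and 65 were at least 2-fold lower, 0.571%, together 0.781%. At 1.5-fold, 366 were higher (3.21%) and 422 lower (3.7%), together 6.92%, of which 46.45% were higher. A loess correction within the pair gave 224 higher and 557 lower, or 28.68% higher. The median over all genes was 0.047. Averaging all probe sets of a gene kept 21 of the 24 higher and 21 of the 65 lower genes past 2-fold. Averaging cannot change a gene that has no other probe set. Another probe set past the filter existed for 4 of the 24 higher and 41 of the 65 lower genes, so these shares cannot be compared. With 1 array per genotype there is no replicate, no p-value and no error for any value here, and all calls are calls of size.

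In plain terms, the fl/fl array was higher for hypoxia and glycolysis genes, peptide hormones and a granin, lipid and sugar handling genes, and Id genes, in the counts given below. It was lower for RNA splicing genes, nuclear noncoding RNAs, a set of Hoxb genes and, by smaller amounts, stem cell markers. Bulk RNA was measured, so more cells of a type and more RNA per cell cannot be told apart.

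**Figure D1:**
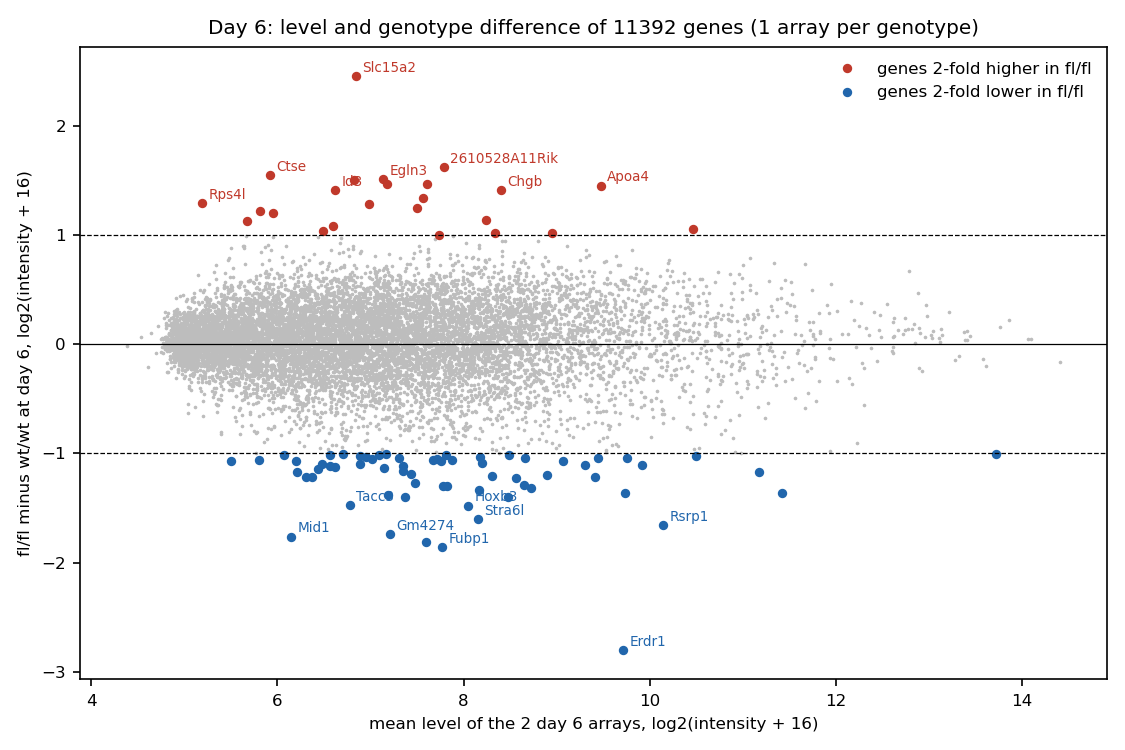
Each point is 1 of 11392 genes, with its mean level over the 2 day 6 arrays, log2(intensity + 16), on the horizontal axis and the fl/fl minus wt/wt difference on the vertical axis. Dashed lines mark 2-fold; the 24 higher genes are red and the 65 lower genes blue, with Slc15a2 at 2.46 and Erdr1 at -2.80 as the extremes.

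Several of the higher genes hold oxygen-response or cAMP-response letters near their start sites, and these windows are shown so that they can be read next to the values. Each runs from 250 bases before to 50 bases after the gene's start, from RefSeq with build GRCm38.p6, and is printed 5′ to 3′ on the gene's strand. In the first 4, capitals mark ACGTG on either strand, the core that hypoxia-inducible factors bind. CACGTG, as in Bnip3 and Ldha, holds that core on both strands and is also the E-box read by other factors.
Bnip3, chr7:138909457-138909756, minus strand: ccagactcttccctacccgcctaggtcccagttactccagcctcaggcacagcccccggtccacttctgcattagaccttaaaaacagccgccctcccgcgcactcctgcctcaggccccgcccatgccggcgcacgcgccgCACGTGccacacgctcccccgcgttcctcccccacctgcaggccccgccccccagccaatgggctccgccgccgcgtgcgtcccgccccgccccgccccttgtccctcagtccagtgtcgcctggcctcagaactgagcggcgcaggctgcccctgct
Egln3, chr12:54203825-54204124, minus strand: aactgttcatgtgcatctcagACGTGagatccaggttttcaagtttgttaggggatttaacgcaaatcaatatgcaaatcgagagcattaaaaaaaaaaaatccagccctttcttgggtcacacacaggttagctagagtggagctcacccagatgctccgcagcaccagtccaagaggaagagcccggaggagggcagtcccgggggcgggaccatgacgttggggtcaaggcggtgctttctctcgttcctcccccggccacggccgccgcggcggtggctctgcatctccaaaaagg
Ankrd37, chr8:45999801-46000100, minus strand: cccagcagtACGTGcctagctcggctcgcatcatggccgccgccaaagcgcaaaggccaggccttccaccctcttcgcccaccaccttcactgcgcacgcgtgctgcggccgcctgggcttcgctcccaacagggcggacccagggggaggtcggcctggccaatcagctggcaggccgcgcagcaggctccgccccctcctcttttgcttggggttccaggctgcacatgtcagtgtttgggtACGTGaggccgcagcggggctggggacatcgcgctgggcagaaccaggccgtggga
Ldha, chr7:46845554-46845853, plus strand: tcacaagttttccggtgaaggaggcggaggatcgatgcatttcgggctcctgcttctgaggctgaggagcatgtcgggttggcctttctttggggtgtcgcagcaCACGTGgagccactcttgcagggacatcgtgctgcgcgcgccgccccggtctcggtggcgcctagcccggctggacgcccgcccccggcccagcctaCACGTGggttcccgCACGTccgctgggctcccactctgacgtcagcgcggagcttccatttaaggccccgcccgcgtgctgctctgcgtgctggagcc

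A second annotated Ldha window held no ACGTG. The core was found in 19.6% of all 32851 windows, in 29.3% of 9232 genes past the filter, and in 22 of the 30 hypoxia and glycolysis list genes that had a window (73.3%). Among the genes 2-fold higher it was in 9 of 18, and among those 2-fold lower in 15 of 46. The hypoxia and glycolysis list was put together by function, so its high share can come from how it was made and not from these arrays. These shares describe letters only, and binding was not measured.

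For the hormone genes, capitals mark TGACG on either strand, the core of the cAMP response element. It was in 20.8% of all windows, in 35.4% of genes past the filter, and in 13 of 27 hormone and granin list genes (48.1%). Among the genes 2-fold higher it was in 8 of 18 (44.4%), and among those 2-fold lower in 19 of 46 (41.3%). In the hypoxia and glycolysis list it was in 7 of 30. ACGTG was in 7 of the 27 hormone and granin list genes.
Cck, chr9:121495645-121495944, minus strand: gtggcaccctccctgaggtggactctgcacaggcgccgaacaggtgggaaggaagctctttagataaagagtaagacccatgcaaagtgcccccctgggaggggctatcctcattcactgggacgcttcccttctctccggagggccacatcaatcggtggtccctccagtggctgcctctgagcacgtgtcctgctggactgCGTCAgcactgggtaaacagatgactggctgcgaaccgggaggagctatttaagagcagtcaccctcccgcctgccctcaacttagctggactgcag
Chgb, chr2:132781392-132781691, plus strand: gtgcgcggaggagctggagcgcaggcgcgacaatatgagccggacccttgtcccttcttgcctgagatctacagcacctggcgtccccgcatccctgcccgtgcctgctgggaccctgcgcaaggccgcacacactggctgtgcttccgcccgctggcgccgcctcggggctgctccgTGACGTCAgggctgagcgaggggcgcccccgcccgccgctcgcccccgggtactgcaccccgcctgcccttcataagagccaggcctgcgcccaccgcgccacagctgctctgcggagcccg

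The Gcg window held neither motif. Cck and Chgb thus carry TGACG in the window, and Gcg, with the largest hormone difference, does not. In each window only the motif chosen for its group is in capitals. The Egln3 and Ldha windows also hold an unmarked TGACG, and the Cck window an unmarked ACGTG. The window of Slc15a2, which is in neither group and is not printed, held ACGTG as well.

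The targeted gene was read first. The brightest Tacc3 probe set read 49.7 in fl/fl at day 6 against 167 in wt/wt, or 29.8% of the wt/wt value, a difference of -1.47. At day 4 the same probe set stood at 184 and 59.8. Another Tacc3 probe set was at 45.5 and 23.1, and the last, close to the filter, at 22.6 and 19.7. The array labelled fl/fl was lower at all 3, and it is not known here which of them lies in the floxed part. Apc, the other gene the labels name, had an intensity of 149.6 in fl/fl against 122 in wt/wt, a difference of 0.27, so both arrays carried signal for it. The 10 nearest genes that passed the filter on chromosome 5, 5 on each side of Tacc3, ranged from -0.78 for Uvssa to 0.57 for Letm1, and 0 of them reached 2-fold. Fgfr3, the next gene along, was at -0.76.

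Markers of the labelled tissue were present. All 12 epithelial identity genes passed the filter, and their median intensities were 1980.4 (wt/wt) and 2729.6 (fl/fl), with Epcam at 4789 and 4704. Of the mesenchymal markers 7 of 17 passed, with none above 32.5 at day 6, and their summed level was 233 and 254. Of the immune markers 6 of 17 passed, and Ptprc read 4.82 and 6.40. Lyz2, which Paneth cells also express, made up most of the immune sum of 1755 and 1353. Endothelial and neural markers each had 3 past the filter, with summed levels of 185 and 196, and of 114 and 118.

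The control probe sets also differed between the day 6 arrays. For Actb the signal of the 5′ probe set over that of the 3′ one, low where RNA is degraded or labelled copies are short, came to 0.180 (wt/wt) and 0.261 (fl/fl), and for Gapdh to 0.411 and 0.524. All 18 hybridization controls and all 24 poly-A spike-ins were lower in fl/fl, with median wt/wt over fl/fl ratios of 1.41 and 1.69. These differ between the same 2 arrays as every gene group below, and their part in the results was not tested. The day 4 arrays lay further off. Their Actb ratios were 0.061 (wt/wt) and 0.063 (fl/fl), and their Gapdh ratios 0.208 and 0.142. Median hybridization controls were 3627 and 2525 at day 4, against 1258 and 1021 at day 6. Rankings of all 4 arrays below use values without further normalization and carry these gaps.

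The highest difference was that of Slc15a2, which encodes the high-affinity transporter of di- and tripeptides PEPT2. Its day 4 intensities were 63.1 (wt/wt) and 176 (fl/fl), and its day 6 intensities 32.9 and 253, a day 6 difference of 2.46. Both fl/fl arrays lay above both wt/wt arrays. Its other probe sets were under the filter, at 8.87 and 8.51 and at 14.3 and 10.9, so the value rests on 1 probe set. Of the 21 peptide and amino acid transporters past the filter, whose median was 0.16, 2 were 1.5-fold higher and 2 lower, with Slc1a4 at -0.77 and Slc1a5 at -0.69, both neutral amino acid exchangers.

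The hypoxia and glycolysis list had 31 of 39 members past the filter. Its median was 0.44 against 0.047 for all genes, 12 members were 1.5-fold higher and 0 lower, and 4 were 2-fold higher. The count at 1.5-fold was 7 with a pseudocount of 64 or with probe sets averaged, and 8 after loess. The number of all genes 1.5-fold higher fell as well, from 366 to 139, 222 and 224 under these settings in turn. Counts of higher genes under these settings in the lists below are to be read against that fall. At the main settings every list stands beside 3.21% higher and 3.7% lower over all genes. Egln3, an oxygen-sensing prolyl hydroxylase that marks hypoxia-inducible factors for decay and is itself induced by them, read 235, 145, 67.1 and 222 in wt/wt day 4, fl/fl day 4, wt/wt day 6 and fl/fl day 6. The low array was wt/wt day 6, and fl/fl day 6 lay near wt/wt day 4. Its other probe set past the filter gave 0.49, against 1.52 for the brightest.

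Bnip3, a mitochondrial receptor for mitophagy, followed the same order at 216, 104, 65.0 and 181, with a day 6 difference of 1.28. Ankrd37, an ankyrin-repeat gene induced by hypoxia, read 54.5, 43.9, 24.7 and 77.6 (difference 1.20). Ldha, which turns pyruvate to lactate, read 1037, 938, 966 and 2027 (difference 1.06). For Ankrd37 and Ldha the fl/fl day 6 array was the highest of the 4, and for Egln3 and Bnip3 wt/wt day 4 was. All 4 were lower in fl/fl at day 4, from -0.95 to -0.14, where the list median was -0.0048. Members named beyond the leading 4 of a list were chosen after their values were seen. The glycolytic genes Pfkl, Tpi1 and Pgk1 were at 0.74, 0.66 and 0.65. The promoter windows printed above show the core in the 4 genes that led the list.

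Peptide hormones were the next group, with 14 of 21 list members past the filter, a median of 0.40, 5 that were 1.5-fold higher and 0 lower, or 2 with a pseudocount of 64. Gcg, the gene for proglucagon and so for GLP-1, read 48.9 and 87.5 in wt/wt and fl/fl at day 4 and 70.7 and 224 at day 6 (difference 1.47). Cck, the gut hormone that releases bile and pancreatic enzymes, read 27.4, 32.3, 20.9 and 70.2 (1.22). Pyy, the gene of peptide YY, was at 0.90, Tac1, the substance P gene, at 0.88 and Sct, the secretin gene, at 0.70. For Gcg and Cck fl/fl day 6 was the highest array, and both were above 0 at day 4 as well, at 0.67 and 0.15. Sst, the somatostatin gene, at 0.13, and Ghrl, the ghrelin gene, at -0.021, were at the foot of the list. Gip, the other incretin gene, was at 0.39.

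Chgb, a granin of secretory granules, read 210.4, 238, 191 and 537 over wt/wt day 4, fl/fl day 4, wt/wt day 6 and fl/fl day 6, a difference of 1.42, and it led a granin and hormone-processing list of 15 with a median of 0.26. That median was 0.14 with a pseudocount of 64, without a filter or without x_at and s_at probe sets, 0.13 with probe sets averaged, 0.15 after loess, and 0.036 over the 4 members left by a filter at the 75th percentile. Chga was at 0.51 and Gch1 at 0.67, while Cplx2, the lowest member, was at -0.57. Of the transcription factors that make these cells, 12 passed the filter with a median of 0.021, and the 1 that reached 1.5-fold was Insm1, lower at -0.71, while Neurod1 was at 0.58 and Neurog3 at 0.25. Tuft cell genes, for the chemosensory cells of the epithelium, had 16 past the filter, a median of 0.28 and 4 higher and 0 lower at 1.5-fold, and with a pseudocount of 64 a median of 0.15 and 1 higher. Alox5ap, which helps make leukotrienes, read 13.6, 10.1, 18.5 and 59.5 (1.13), Rgs13 was at 0.93, Fyb at 0.91 and Avil at 0.64. Without the fl/fl day 6 array the mean of Alox5ap falls under the filter, so its call rests on that array. Dclk1 was at 0.50 and Pou2f3, the factor that specifies tuft cells, at 0.13. Paneth and goblet lists had medians of 0.016 and 0.0099.

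**Figure D2:**
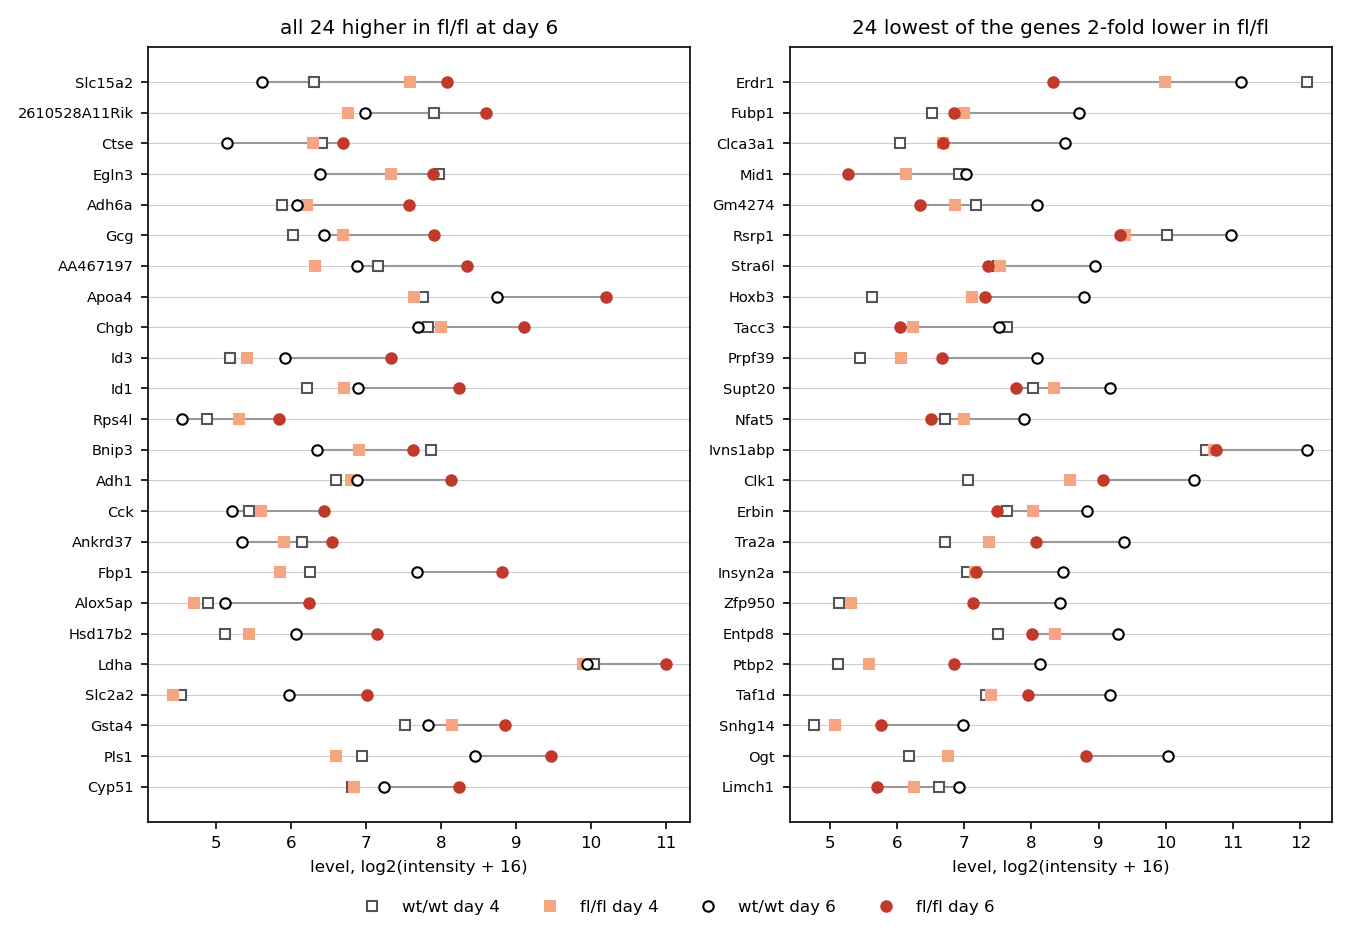
Levels, log2(intensity + 16), of the 24 genes 2-fold higher in fl/fl at day 6 (left) and the 24 lowest of the 65 lower (right) on the 4 arrays, with squares for day 4, circles for day 6, open for wt/wt and filled for fl/fl. The grey line joins the 2 day 6 arrays; Egln3 and Bnip3 were as high or higher in wt/wt at day 4, whereas Gcg and Chgb were highest in fl/fl at day 6.

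Of the enterocyte lists, lipid handling had 28 members past the filter, a median of 0.36, and 7 higher and 0 lower at 1.5-fold, or 4 higher with a pseudocount of 64. Apoa4, the apolipoprotein of chylomicrons, read 201 and 182 in wt/wt and fl/fl at day 4 and 413 and 1159.9 at day 6 (1.45), and a second Apoa4 probe set gave 1.37. Apoc3 was at 0.90, Fabp1 at 0.88 and Dgat2 at 0.84. Sugar transport and fructose genes had 12 past the filter, a median of 0.38 and 3 higher. Fbp1, a gluconeogenic phosphatase, read 59.8, 41.5, 189 and 434 (1.14), Slc2a2, the GLUT2 gene, 6.97, 5.37, 46.7 and 113 (1.04), and Slc5a1, the SGLT1 gene, was at 0.76. Slc2a2 was near the floor on both day 4 arrays, and without fl/fl day 6 its mean falls under the filter. Brush border enzymes had 22 past the filter and a median of 0.040. Of these, 2 were higher (9.09%, against 3.21% of all genes), Lct, the lactase gene, at 0.77 and Anpep at 0.65.

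Metabolic enzymes joined them. Adh6a and Adh1, alcohol dehydrogenases that lie next to each other on chromosome 3, had day 6 intensities of 51.3 and 175, and of 101 and 264. Hsd17b2, which inactivates oestradiol, was at 1.08, and Gsta4, a glutathione transferase, at 1.02. The xenobiotic list had 40 members past the filter, 8 higher (20%, against 3.21% of all genes) and 0 lower. Its median was 0.19 (0.12 after loess), with Sult1b1 at 0.99 and Cyp3a11 at 0.95. Fatty acid oxidation genes (25 members) had a median of 0.30 with 5 higher, cholesterol and fatty acid synthesis genes (32) a median of 0.26 with 5 higher, and 0 of either were lower. Cyp51, a sterol demethylase, had 135 and 287 on its brightest probe set, a 2.12-fold ratio, while its others gave differences of 0.016 and 0.12. Oxidative phosphorylation genes (76) had a median of 0.36 with 13 higher, mitochondrial ribosomal proteins (76) 0.30 with 10 higher, and proteasome subunits (31) 0.34 with 5 higher, and 0 of these were 1.5-fold lower. After loess the counts of higher genes were 5 for oxidative phosphorylation, 5 for mitochondrial ribosomal proteins and 1 for fatty acid oxidation. With a pseudocount of 64, fatty acid oxidation had 0 and mitochondrial ribosomal proteins 5. With probe sets averaged, mitochondrial ribosomal proteins had 4, fatty acid oxidation 2 and cholesterol and fatty acid synthesis 1, with a median of 0.13 for the last. The number of all genes 1.5-fold higher also fell, from 366 to 224, 139 and 222 under these settings in the same order. Mitochondrial ND5, read from the organelle genome, went the other way, at 19073 (wt/wt) and 9505 (fl/fl), just past 2-fold lower.

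Id1 and Id3, inhibitors of bHLH transcription factors and targets of BMP signalling, were at 1.35 and 1.41. Id3 read 20.3, 26.5, 44.2 and 144 over wt/wt day 4, fl/fl day 4, wt/wt day 6 and fl/fl day 6, and Id1 58.0, 87.9, 103 and 285. Id2 was at 0.83. The BMP and Id list of 17 had a median of 0.23, which became -0.063 with a filter at the 75th percentile. Its leading members outside the Id genes were Bmpr1a at 0.36 and Smad1 at -0.36. The remaining higher genes were 2610528A11Rik, Ctse, an aspartic protease gene, AA467197, Rps4l, Alox5ap and Pls1, the gene of an actin bundler of microvilli. Pls1 stood at 332 and 691 on the day 6 arrays. Rps4l read 13.2, 23.5, 7.34 and 41.4 in the array order given for Id3. Without fl/fl day 6 the mean of Rps4l falls under the filter. Ctse had a second probe set past the filter that gave 0.19 against 1.55.

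**Figure D3:**
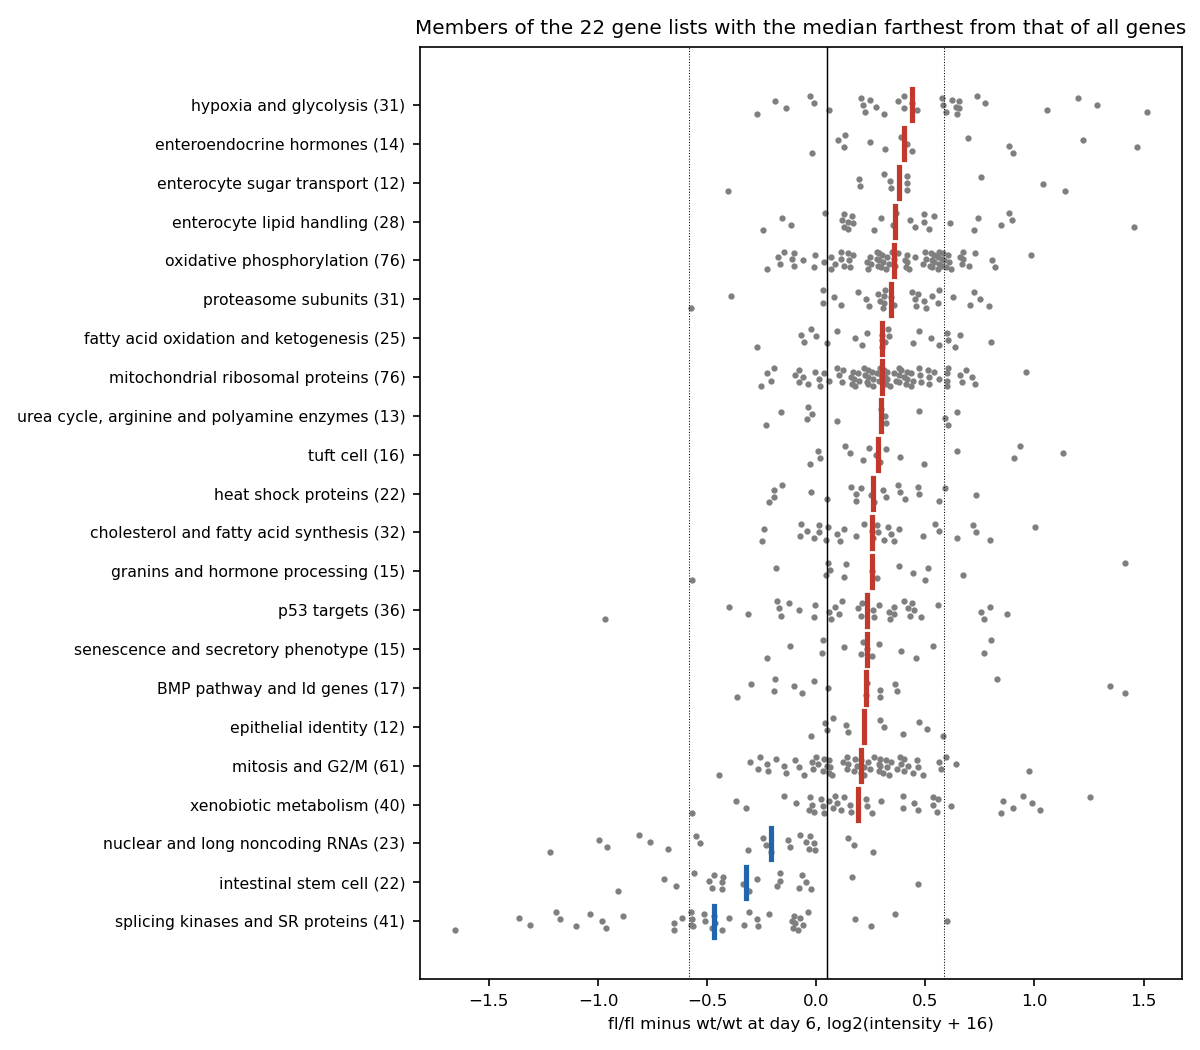
Members of 22 gene lists, those with the median farthest from that of all genes among lists with 10 or more genes past the filter, as fl/fl minus wt/wt at day 6 (log2 scale), 1 grey point per gene past the filter with the number in brackets; coloured bars are list medians, the solid line the median of all genes and dotted lines 1.5-fold. The hypoxia and glycolysis median is drawn at 0.44, the hormone median at 0.40 and that of splicing kinases and SR proteins at -0.47.

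RNA splicing and processing genes made up 13 of the 65 lower genes, and this grouping by function, like those below, was made after the values were seen. Only called genes were grouped in this way, so such counts have no share over all genes to be read against. From the list of splicing kinases and SR proteins, 41 of 45 members passed the filter, 37 lay below 0 and the median was -0.47. Of these, 13 were 1.5-fold lower and 1, Srsf9, higher at 0.60, and 7 were 2-fold lower, or 3 with probe sets averaged. Averaging took the number of all genes 2-fold lower from 65 to 24. Rsrp1, an arginine and serine rich protein, read 1018, 656, 1991 and 621 over wt/wt day 4, fl/fl day 4, wt/wt day 6 and fl/fl day 6 (-1.66). Clk1, a kinase of SR proteins, read 117, 365, 1352 and 517 (-1.36). Tra2a, an exon-inclusion factor, read 88.9, 149, 649 and 251 (-1.31). For these 3 the wt/wt day 6 array was the highest of the 4, and fl/fl day 6 was above fl/fl day 4 in Clk1 and Tra2a.

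Other members were the kinase Prpf4b (-1.19), the RNA helicase Ddx5 (3450.1 and 1522 at day 6, -1.17), and the U1-associated Luc7l3 (-1.10) and Rbm39 (-1.04). Outside that list, Fubp1, a single-strand binding protein, was at -1.86, Prpf39 at -1.40, Ptbp2, a splicing repressor, at -1.28 and Thoc1, of the mRNA export complex, at -1.21. The probe sets of a gene did not all agree. The 13 genes had 38 other probe sets past the filter, of which 32 were below 0, 17 were 1.5-fold lower, and the median was -0.53. Rbm39 had 11 others, all below 0 and from -1.42 to -0.15. For Fubp1, the others gave 0.36, -0.97 and -0.69, for Rsrp1 0.42 and -0.91, and for Prpf4b 0.30, 0.38, -1.04 and -0.08. Several of these genes make alternative transcripts, and which transcript each probe set reads was not analysed here.

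**Figure D4:**
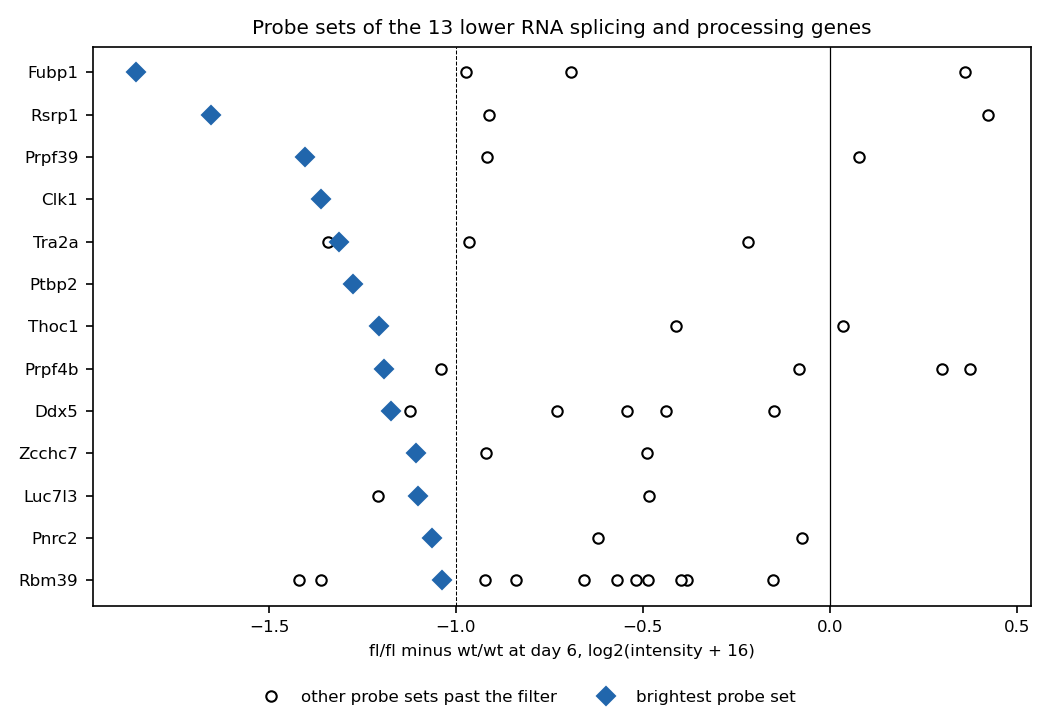
Fl/fl minus wt/wt at day 6 (log2 scale) for every probe set past the filter of the 13 lower RNA splicing and processing genes, with the brightest probe set as a blue diamond and the others as open circles; the dashed line marks 2-fold lower. Circles spread from -1.42 to 0.42, and Clk1 and Ptbp2 have no other probe set past the filter.

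Nuclear and long noncoding RNAs lay lower too, with 23 past the filter, 20 below 0 and a median of -0.21. At 1.5-fold 6 were lower and 0 higher, or 3 lower with probe sets averaged. Averaging took the number of all genes 1.5-fold lower from 422 to 185. Snhg14, the host transcript of the Prader-Willi locus snoRNAs, read 11.3, 17.6, 111 and 38.3 (-1.22). Neat1, the scaffold of paraspeckles, stood at 2835 and 1414 at day 6, while its dim other probe set gave 0.13. Kcnq1ot1, an imprinted antisense RNA, was at -0.96, with Airn, another imprinted RNA, at -0.81. Malat1, of nuclear speckles, was at -0.55 on its brightest probe set and at -0.93 to 0.090 on its 6 others. Sense and antisense transcripts were told apart only as far as the probe sets do.

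Transcription and chromatin genes supplied 14 of the 65, again without a share over all genes to read this count against. Hoxb3, Hoxb4 and Hoxb5, which lie together on chromosome 11 and give segments their identity, were at -1.48, -1.04 and -1.01, and Hoxb6 was at -0.58. Hoxb3 read 33.4, 123, 425 and 143 over wt/wt day 4, fl/fl day 4, wt/wt day 6 and fl/fl day 6, and Hoxb5 104, 297, 303 and 142. The other probe sets of Hoxb3 and Hoxb4 past the filter gave -0.29 and -0.28, and with probe sets averaged 1 of the 3, Hoxb5, was 2-fold lower. The Hox list had 12 past the filter and a median of -0.080, with 0 others at 1.5-fold. Its median was -0.79 over the 6 members left by a filter at the 75th percentile and 0.0011 over 26 without a filter. Zinc finger genes had 210 past the filter, a median of -0.085, 17 lower (8.1%, against 3.7% of all genes) and 0 higher. Zfp950, Zfp948, Zfp263 and Zfp579 were 2-fold lower at -1.30, -1.14, -1.07 and -1.02. Nfat5, the factor of the osmotic stress response, was at -1.38, and Supt20, a SAGA subunit, at -1.40.

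Intestinal stem cell markers had a median below 0. Of the 22 past the filter, 20 lay below 0, the median was -0.32, 3 were 1.5-fold lower and 0 higher. Olfm4, a crypt-base marker, read 834, 391, 6534 and 3478 over wt/wt day 4, fl/fl day 4, wt/wt day 6 and fl/fl day 6 (-0.91). Rnf43, a ligase that removes Wnt receptors, was at -0.70, Msi1 at -0.64 and Prom1 at -0.56, while Lgr5 read 262, 405, 983 and 706 (-0.47). None of the 22 was 2-fold, and Hopx was the highest at 0.47. Wnt target genes had 23 past the filter and a median of -0.067, with Axin2 at -0.43 and Ccnd1 at 0.44. Mitosis genes, near to the role of Tacc3, had 61 past the filter, a median of 0.20, 3 higher and 0 lower. The higher share, 4.92%, was near the 3.21% of all genes. Nek2 was at 0.97 and Ube2c at 0.64. Spindle partners of Tacc3 (23) had a median of 0.12 and 0 reached 1.5-fold. Of the p53 targets, 36 passed with a median of 0.23, Cdkn1a at 0.77 and Ddb2 at -0.97.

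Erdr1 was lowest of all genes, at 4377 and 994 in wt/wt and fl/fl at day 4 and 2210.3 and 303 at day 6, a difference of -2.80. Its other probe set past the filter gave -0.29, and the brightest one is a type whose probes can match several transcripts. Mid1, a microtubule-associated ubiquitin ligase gene that in mice crosses the boundary of the pseudoautosomal region, is the neighbour of Erdr1 in the table and read 106, 53.9, 115 and 22.6 (-1.76). On the far side of Mid1, Hccs was at 0.46, Arhgap6 at -0.22 and Msl3 at 0.49. Mid1 and Erdr1 were lower in fl/fl at day 4 as well, at -0.80 and -2.12. Other lower genes were Clca3a1, a calcium-activated chloride channel regulator gene (-1.81, and -1.43 on another probe set), Gm4274 (-1.74), Stra6l (-1.60), Ivns1abp (-1.37), Erbin, a binder of ERBB2 (-1.33), Ogt, the enzyme that adds O-GlcNAc (-1.22), Bcl2, a guard against apoptosis (-1.01), and Socs3, a brake on cytokine signals (-1.01). Bcl2 had 177 and 79.9 on the day 6 arrays.

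The other lower genes are given by function with their differences. Among transcription and chromatin genes these were Taf1d, of the RNA polymerase I machinery (-1.22), Mllt10 (-1.13), Pogz (-1.12), Lrif1 (-1.06) and Zkscan3 (-1.02). Among cytoskeletal and trafficking genes they were Insyn2a (-1.30), Limch1 (-1.22), Nav2 (-1.17), Stx17, a syntaxin of autophagosomes (-1.16), Mpp3 (-1.04) and Cep295, a centriole protein gene next to Taf1d (-1.01). Among transporters and enzymes they were Entpd8, an ectonucleotidase (-1.29), Trpc2 (-1.09), Slc16a4 (-1.07), Usp33 (-1.06), Dnase2a (-1.05), Slc25a37, the mitochondrial iron importer (-1.05), and Car8 (-1.04). Signalling genes were Map3k12, a kinase (-1.19), Malt1 (-1.10), Nsmf, the neighbour of Entpd8 (-1.03), and Mapk1ip1. The RNA genes Zcchc7 and Pnrc2 were at -1.11 and -1.06. The others were Ccdc82, Eif2s3y, on the Y chromosome, and Ankrd16, and the noncoding or uncharacterised Gm13238, 2310067E19Rik, 9130016M20Rik, 2610005L07Rik and Firre, all 8 between -1.13 and just past 2-fold. Ivns1abp, named above, had day 6 intensities of 4388 and 1694. Without the wt/wt day 6 array the means of Lrif1, Slc16a4 and 9130016M20Rik fall under the filter, so they passed through that array.

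Of the 65 lower genes 41 had another probe set past the filter, a larger share than the 42.3% of all genes. Such other probe sets numbered 99 in all. Of these 86 were below 0, 45 were 1.5-fold lower, 18 were 2-fold lower and 0 were 1.5-fold higher, and the median was -0.52. Of the 24 higher genes 4 had another, a smaller share than that of all genes, and 4 of 4 such probe sets were above 0, 1 of them 2-fold. Probe sets of a kind that can match several transcripts carried 13 of the 65 and 2 of the 24, against 12.6% of all genes.

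**Figure D5:**
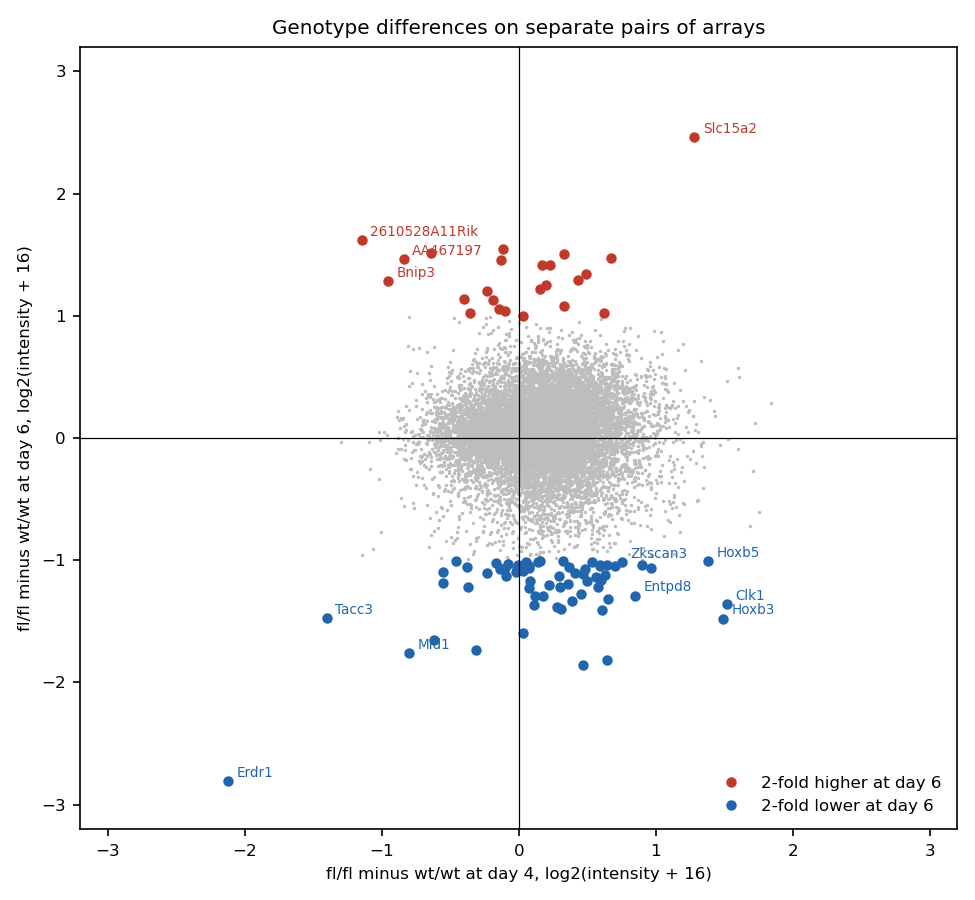
Genotype differences at day 4 (horizontal) and day 6 (vertical), both fl/fl minus wt/wt in log2 units and from separate pairs of arrays, with all 11392 genes in grey. Genes 2-fold higher at day 6 are red and lower ones blue; Slc15a2, Tacc3, Mid1 and Erdr1 keep their side of 0, while Clk1, Hoxb3 and Hoxb5 lie at the opposite side.

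Set beside day 4, the 24 higher genes had a median day 4 difference of -0.037, with 12 above 0 and 12 below, and the 65 lower genes a median of 0.28, with 46 above 0 and 19 below. The median of all genes at day 4 was 0.15, so a split at 0 is shifted for all genes alike. Set against that median, 29 of the 65 lower genes lay below it at day 4. Of the 24 higher genes 11 lay above it. At day 4, 157 genes were 2-fold higher (1.38%) and 12 lower (0.105%). Genes that were 2-fold at both days in the same direction were Slc15a2 above 0 and Erdr1 and Tacc3 below. The wt/wt day 6 array was the highest of the 4 in 57 of the 65 lower genes, against 20.9% of all genes, and the fl/fl day 6 array in 22 of the 24 higher, against 31.3%; being called fixes part of both shares, so they are descriptions. RNA splicing genes were highest in wt/wt day 6 in 12 of 13, and day 4 differences were above 0 in 10 of 13. These shares lie close to the 57 and 46 of all 65 lower genes, so neither is particular to the splicing genes.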

How the data were processed

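The authors deposited 1 linear intensity for each of 45101 probe sets on 4 arrays, per the labels from biotinylated cRNA prepared by 3′ in vitro transcription. The software is not given in the sources used here, nor are background correction and scaling, and the number of arrays limits the precision. Values were analysed as log2(intensity + 16) without further normalization. Symbols came from the platform table, updated through Entrez with a RefSeq table of GRCm38.p6, and 1 symbol was given for 34958 probe sets, several for 932 and none for 9211. A gene stands for its brightest probe set by mean, and was kept where that mean was at or above the overall probe set median (log2 5.04). Calls are 2-fold and 1.5-fold. Groups came from the titles. The comparison, the 62 lists and the classes were chosen with earlier results of these data known. Named genes are Tacc3 and Apc, the 15 highest and 15 lowest differences, any further 2-fold gene, and up to 4 leading members of each list. Cell type markers, neighbouring genes and further list members were also named, the last after their values were seen. Alternatives were pseudocounts of 4 and 64, filters, averaged probe sets, no x_at and s_at probe sets, quantile, centring and loess (span 0.3). Calling was tested on simulated data, with changes larger than 2-fold in bright genes and little noise. That checked the counting only, and it does not show how reliable the calls on these arrays are. Python 3.11.15, pandas 2.3.3 and statsmodels 0.14.6 were used.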

Additional observations from a re-analysis of the deposited data

Results flagged for a closer look

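Genes whose genotype difference lay past 2-fold in opposite directions on the 2 pairs of arrays were singled out, and this difference between days was not tested. Clk1, the SR protein kinase, went from 1.52 at day 4 to -1.36 at day 6, a change of -2.88. Hoxb3 went from 1.49 to -1.48, a change of -2.97, and its neighbour Hoxb5 from 1.38 to -1.01, a change of -2.39. The gene 2610528A11Rik, whose human counterpart encodes a ligand of the receptor GPR15, went from -1.14 to 1.62, a change of 2.76; it read 223 and 92.2 in wt/wt and fl/fl at day 4 and 110.0 and 371 at day 6. Each rests on 4 arrays, 1 per group.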

How the results depend on the processing

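No paired analysis was possible because there was 1 array per group. All 2-fold genes that had a value kept their direction under all 9 alternatives, while the counts depended on the settings. A changed pseudocount cannot turn the direction of a probe set, a filter only keeps or drops genes, and centring moves all genes alike. For those settings the kept direction was fixed in advance or nearly so, and it says nothing about stability. With a pseudocount of 4 the genes 2-fold and 1.5-fold higher numbered 44 and 567. With 64 they numbered 10 and 139, and the lower ones 27 and 221, and the hormone list median was 0.17. With probe sets averaged, 222 genes were 1.5-fold higher, 185 were 1.5-fold lower and 24 were 2-fold lower. Loess gave 224 genes 1.5-fold higher. A filter at the 75th percentile gave a hormone median of 0.70 and a BMP and Id median of -0.063. The causes were not tested. Over the alternatives the hypoxia and glycolysis median ran from 0.32 to 0.51, the splicing median from -0.57 to -0.41 and the stem cell median from -0.43 to -0.25. With 1 array per genotype no spread could be measured, and dim genes near the floor have the least certain sizes.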
